A study of Mus musculus with 2 samples.

Results

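Dense clusters of distal open chromatin sites were described in frontal cortex of the mouse. The 726 sites were taken from the 104654 DNase-seq peaks of replicate 1 (0.694% of them), in which the nuclease DNase I cuts open DNA and the cut ends are sequenced. A site had to be centred more than 1 kb from every transcript start of GENCODE mouse release M21 and to overlap a replicate 2 peak by at least 1 bp, and 40352 autosomal peaks met both conditions. They were counted by centre in fixed 50 kb windows from the start of each autosome, and the peaks of windows with 8 or more were kept. The members were therefore chosen by the peak positions of these 2 libraries, so their density, reproducibility and distance from transcript starts are descriptions that carry no test. They lay in 75 of 49264 autosomal windows (0.152%), made up 1.80% of the reproducible distal peaks, and left 39626 others in windows of 1 to 7.

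Both libraries came from frontal cortex tissue of female B6CASTF1/J mice aged 10 days, the F1 hybrid of B6 and CAST mice. By their labels they are a pair of biological replicates of a single group, numbered 1 and 2, with the same donor record given for both. The labels' "3x" mark is unexplained in the sources used here, so whether animals were pooled is unknown. With 1 group and 2 libraries no condition was compared and no p-value is given. Replicate 2 had 81654 peaks. Each peak carries a signal value from the authors, of unstated scaling, that moved in steps of 0.00521 (replicate 1) and 0.0113 (replicate 2), and the read depth is unknown. In a bulk tissue, a low signal from few cells of a type and a low signal from weak opening in each cell cannot be told apart. As a check of the tissue label, a peak lay within 500 bp of the gene start for 17 of 20 excitatory neuron markers in replicate 1 and 16 in replicate 2, and for 2 and 1 of 20 liver and skeletal muscle markers, beside 62.0% and 59.1% of all autosomal protein-coding genes. Housekeeping genes (17 and 16 of 18), astrocyte markers (16 and 15 of 18) and vascular markers (11 and 7 of 18) had such peaks too.

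Distal open sites are commonly enhancers, insulators or other regulatory elements, where transcription factors hold DNA free of nucleosomes. Genes that set cell identity or are induced rapidly often have many such sites around them, and clusters of them are studied under names such as super-enhancers and stretch enhancers. Transcription factors can also protect the bases they touch from DNase I, which leaves a short run of few cuts called a footprint. Open sites that are not near an annotated transcript start can also be promoters that the annotation lacks, and the tRNA genes are one such class here, since the GENCODE annotation used held 0 genes of type tRNA.

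For each of the 6 fullest windows the strongest member by mean signal among those of at most 300 bp is printed, because these windows set the upper end of the density range and differ in kind. The Nr1d1 and Msl1 window also holds a stronger, longer member, left out by that limit. Sequences are from the plus strand of GRCm38.p6, whose coordinates are those of mm10. Capitals mark bases that lay under a footprint in both libraries.
Nfic intron, chr10:81432941-81433200: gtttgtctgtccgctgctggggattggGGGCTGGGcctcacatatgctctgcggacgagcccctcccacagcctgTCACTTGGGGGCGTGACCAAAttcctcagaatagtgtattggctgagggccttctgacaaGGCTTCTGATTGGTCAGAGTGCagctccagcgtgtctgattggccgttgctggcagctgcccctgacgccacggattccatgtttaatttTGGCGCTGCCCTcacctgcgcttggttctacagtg
B4galt5 and Ptgis window, chr2:167279241-167279420: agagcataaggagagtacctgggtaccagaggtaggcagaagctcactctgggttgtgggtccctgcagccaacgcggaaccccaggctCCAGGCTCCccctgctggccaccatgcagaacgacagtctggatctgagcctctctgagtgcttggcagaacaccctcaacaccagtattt
Nfic, Celf5 and Ncln window, chr10:81450261-81450460: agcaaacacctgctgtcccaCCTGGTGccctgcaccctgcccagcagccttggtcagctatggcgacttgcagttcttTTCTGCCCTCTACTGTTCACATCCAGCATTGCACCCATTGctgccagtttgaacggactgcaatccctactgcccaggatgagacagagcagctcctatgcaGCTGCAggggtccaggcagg
tRNA-Tyr site in the Abt1 window, chr13:23432981-23433160: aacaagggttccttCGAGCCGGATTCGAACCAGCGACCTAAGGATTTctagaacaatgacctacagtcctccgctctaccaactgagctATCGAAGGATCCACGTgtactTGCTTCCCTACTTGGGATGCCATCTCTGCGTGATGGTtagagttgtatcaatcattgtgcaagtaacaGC
Nr1d1 and Msl1 window, chr11:98786961-98787160: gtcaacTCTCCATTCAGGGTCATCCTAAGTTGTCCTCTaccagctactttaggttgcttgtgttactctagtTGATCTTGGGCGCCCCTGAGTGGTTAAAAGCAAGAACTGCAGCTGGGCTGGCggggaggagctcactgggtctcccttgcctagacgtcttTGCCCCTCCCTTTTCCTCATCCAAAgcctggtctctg
site in the window closest to Irf2bpl, chr12:86801241-86801480: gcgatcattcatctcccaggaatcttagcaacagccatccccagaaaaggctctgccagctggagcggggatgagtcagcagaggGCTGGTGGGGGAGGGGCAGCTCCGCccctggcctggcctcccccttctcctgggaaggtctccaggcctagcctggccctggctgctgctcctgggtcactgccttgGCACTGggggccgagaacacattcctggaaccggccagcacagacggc
The footprinted bases shared by both libraries numbered 109 in the Nr1d1 and Msl1 site, 88 in the tRNA-Tyr site, 63 in the Nfic intron site, 53 in the Nfic, Celf5 and Ncln site, 31 in the Irf2bpl site and 9 in the B4galt5 and Ptgis site. Both sites with most shared footprinted bases were the strongest of the 6, with signals of 5.50 in replicate 1 and 8.41 in replicate 2 at Nr1d1 and Msl1, and of 5.35 and 8.51 at tRNA-Tyr. The B4galt5 and Ptgis site was the weakest, with 1.14 and 0.936.

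Most of the clusters were only just dense enough to be kept. Of the 75 windows, 34 held 8 members, 18 held 9, 10 held 10 and 13 held 11 or more, up to 24. The 3 fullest held 65 members (8.95% of all). Just under the threshold, 63 windows held 7 peaks and 187 held 6, so the count falls off steadily and shows no gap at 8. The windows with 8 members had a median signal of 1.19 in replicate 1 and 1.48 in replicate 2 (the median over windows of each window's median), and those with 7 peaks had 0.854 and 1.11. The 3 strongest windows at 8, by summed replicate 1 signal, are named here by the genes that start in them. They were the window of Kdm6b, a histone demethylase, that of Ang, Olfr750 and several ribonuclease genes, and that of Aurkb, Ctc1 and Pfas. In the Ang and Olfr750 window 5 of the 8 members lay within 200 bp of a tRNA gene. In the Aurkb window 6 of 8 did. The 3 strongest at 7 lay near Sfi1, at Nmur1 and Tex44, and near Wnt7b.

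**Figure D1:**
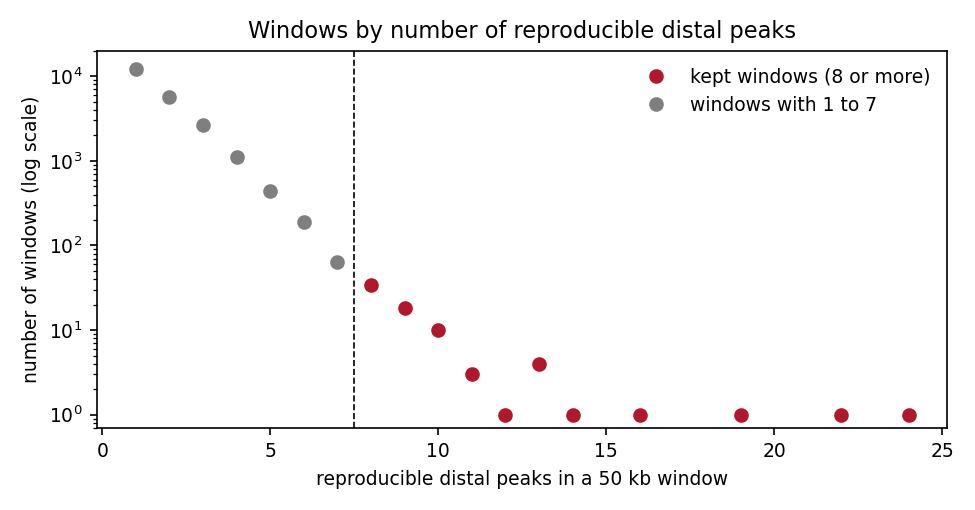
Number of autosomal 50 kb windows (log axis) by the number of reproducible distal peaks they hold. Windows with 8 or more, 75 in all, are the kept windows; 63 windows stand at 7 and 1 window at 24.

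A kept window was rarely filled evenly. The distance from the first to the last member was 35.4 kb in the median window (6.25 to 50.1 kb), yet the median gap between neighbouring members was 840 bp in the median window, so members stood in tight groups within it. The peak lists hold overlapping peaks, and 58 members (7.99%) overlapped another member, against 843 of the others (2.13%). When members under 200 bp apart were joined, the 726 became 584 sites, the median window held 8 of them, and 37 of the 75 windows held fewer than 8. The Sox4 window was the extreme case, with 9 members in 4 joined sites.

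Kept windows were spread over 17 of the 19 autosomes in groups of unequal size. Chromosome 11 held 13 of them, with 119 members that made up 4.28% of its reproducible distal peaks, chromosome 2 held 10 with 109 members (3.39%), and chromosomes 5 and 13 held 8 each. Chromosomes 8 and 16 held 0. Neighbouring kept windows formed 5 runs of 11 windows, which leaves 69 separate clusters. The Nfic and Celf5 run at chr10:81400001-81500000 held 43 members in 2 windows. The Thra, Nr1d1 and Msl1 run at chr11:98700001-98800000 held 23 in 2, the Irf2bpl run at chr12:86800001-86900000 held 21 in 2, and the Aurkb, Per1 and Vamp2 run at chr11:69000001-69100000 held 17 in 2. Thra encodes a thyroid hormone receptor, and Nr1d1 encodes a circadian repressor that is also a nuclear receptor. The runs are named by genes that start in or near them, and Thra was named after its run was seen. In the Aurkb, Per1 and Vamp2 run, 6 of 8 members in 1 window and 4 of 9 in the other lay at tRNA genes.

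The fullest windows held mostly weak peaks. In the Nfic window at chr10:81400001-81450000, all 24 members were intronic, with a lowest, median and highest signal of 0.151, 0.503 and 4.52 in replicate 1 and of 0.158, 0.671 and 4.95 in replicate 2. Nfic encodes a nuclear factor I transcription factor. The next window, chr10:81450001-81500000, holds the starts of Nfic, of Celf5, which encodes an RNA-binding regulator of splicing, and of Ncln, which encodes a membrane protein of the endoplasmic reticulum. Its 19 members had 0.208, 0.328 and 1.99 in replicate 1 and 0.214, 0.429 and 1.92 in replicate 2. Most members of both windows were below the median of the others, 0.703 in replicate 1 and 0.868 in replicate 2: in the window of 24, 10 were above it in replicate 1 and 7 in replicate 2, and in that of 19, 2 were above it in replicate 1 and 1 in replicate 2.

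Weak peaks also filled 3 windows at other genes. In the window at chr2:167250001-167300000, which overlaps the end of B4galt5, a galactosyltransferase gene, and whose closest start is that of Ptgis, the prostacyclin synthase gene, the 22 members had a lowest, median and highest signal of 0.135, 0.227 and 1.14 in replicate 1 and of 0.101, 0.242 and 0.959 in replicate 2. This window had the lowest median of all 75 in both libraries. The 13 members at Tns1, which encodes the focal adhesion protein tensin, had medians of 0.302 and 0.316, and the 13 at Phactr3, which encodes a regulator of protein phosphatase and actin, had 0.260 and 0.259. These windows were also unequal between the libraries before the overlap was asked for, with 43 distal peaks in replicate 1 and 27 in replicate 2 at B4galt5, 26 and 18 at Tns1, and 17 and 25 at Phactr3. The deposited cut-rate tables listed much of such windows at a false discovery rate of at most 0.05, namely 44.1% of bases in replicate 1 and 17.9% in replicate 2 at B4galt5, and 34.0% and 36.3% in the Nfic window of 24 members. The median kept window had 10.4% and 8.72%, and the median window with 1 to 7 peaks 1.43% and 1.22%. The listed share was thus high in the B4galt5 and Nfic windows, but it did not follow the member count in every window. It was 10.3% in replicate 1 and 8.04% in replicate 2 in the window of 13 members closest to Irf2bpl. In the window of 8 members at Kctd17 it was 27.4% and 9.65%. Its part in the count was not tested.

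Other full windows were made of stronger sites. The 14 members of the Nr1d1 and Msl1 window had a lowest, median and highest signal of 0.672, 1.86 and 7.57 in replicate 1 and of 0.846, 2.22 and 9.51 in replicate 2. Msl1 encodes a scaffold of a histone acetyltransferase complex. The 13 members in the window whose centre is closest to Irf2bpl, at 59.8 kb, had medians of 1.17 and 1.34; the window overlaps no protein-coding gene, and for 7 of the 13, the printed site among them, the closest start was that of Lrrc74a, and the 13 at Tnrc18, which encodes a chromatin protein, had 0.927 and 1.04. The window whose centre is closest to Cstad, at 80.0 kb, overlaps no protein-coding gene. Its 10 members included the highest replicate 2 signal of any member, with 11.1 in replicate 1 and 14.1 in replicate 2. The window of Cirbp, a cold-inducible RNA-binding protein gene, and Efna2, an ephrin gene, had a top member of 8.99 and 11.3. The highest window median, 3.46 in replicate 1 and 4.89 in replicate 2, was that of the 9 members around Ptma, the prothymosin alpha gene, named after its values were seen.

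**Figure D2:**
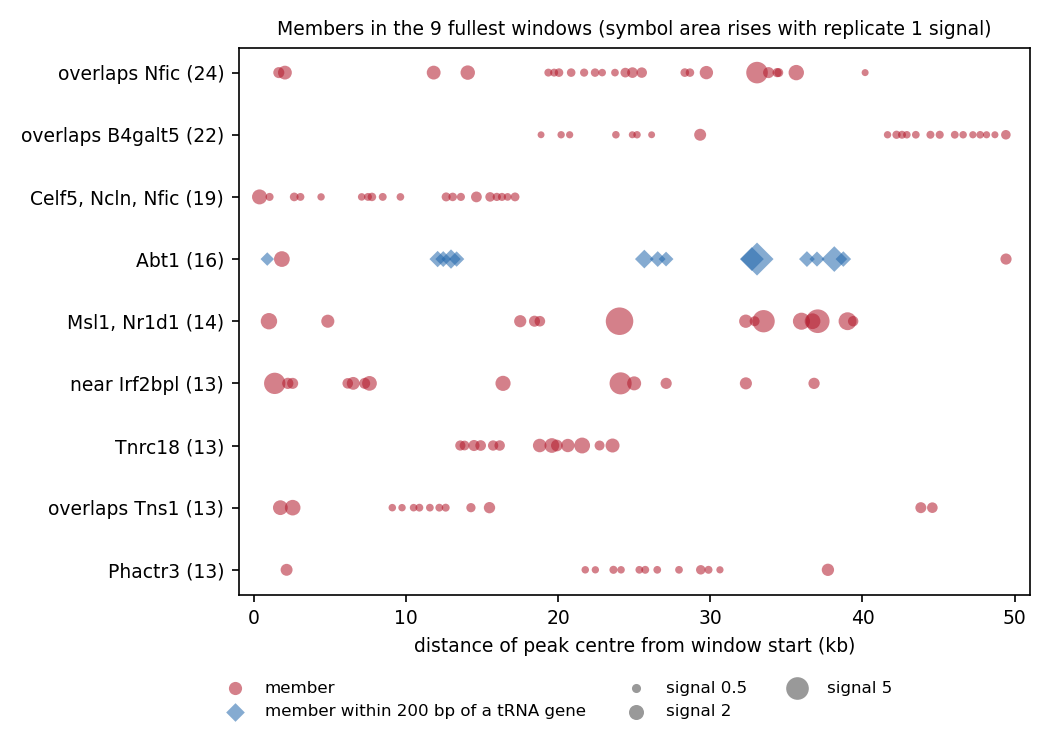
Position of each member (distance of the peak centre from the window start, in kb) in the 9 fullest windows, 1 line per window with the member count in brackets. Symbol area rises with replicate 1 signal and diamonds are members within 200 bp of a tRNA gene, 14 of the 16 in the Abt1 window; many small circles fill the Nfic, B4galt5, Tns1 and Phactr3 windows.

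Genes of forebrain development stood among the named windows. Otx1, which encodes a homeobox factor of the forebrain and deep cortical layers, had 11 members with medians of 0.443 and 0.801, which spanned 6.80 kb, formed 7 joined sites and lay in exons in 7 cases. Insm1, a zinc finger factor of basal progenitors, had 10 members with a lowest, median and highest signal of 0.380, 0.568 and 0.714 in replicate 1 and of 0.462, 0.694 and 0.823 in replicate 2. Sox4, which acts in newborn neurons, had 9 members with 1.06, 1.37 and 6.09 in replicate 1 and 0.868, 1.85 and 7.53 in replicate 2. At Sox4, 5 of the 9 members were exonic and 3 of these overlapped one another, while the strongest, 6.09 and 7.53, was intergenic. Pou3f2, named after its values were seen and encoding a POU factor of upper cortical layers, had 10 members with medians of 0.883 and 1.17.

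Rapidly induced genes and genes of neuronal signalling also had kept windows. Btg2, an antiproliferative gene, had 9 members with a lowest, median and highest signal of 0.526, 1.03 and 4.01 in replicate 1 and of 0.744, 1.26 and 3.97 in replicate 2. Egr4 had 9 with medians of 0.568 and 0.981, and Egr1 had 8 with medians of 1.20 and 1.49; both encode zinc finger factors induced by neuronal activity. Vamp2, which encodes the synaptic vesicle protein synaptobrevin, shared a window of 9 members with Per1, a circadian clock gene, and with Borcs6 and Tmem107, and 4 of those 9 lay at tRNA genes. Adgrb1 encodes an adhesion receptor of neurons and glia, and its 11 members had medians of 1.14 and 1.31. Kcnj9 and Kcnj10, which encode potassium channels of neurons and of glia, shared a window of 10 members with medians of 1.20 and 1.47. Around Rtn4rl2, a gene of the Nogo receptor family, 10 members had medians of 1.08 and 1.54.

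The remaining windows among the 20 fullest held less familiar neighbours. Sfi1, a centrosome gene, had 11 intronic members with medians of 1.03 and 0.992. The share of bases masked as repeats averaged 36.1% over these members, the highest mean of any kept window. Soga1 and Tldc2 shared 10 intronic members with medians of 1.10 and 1.30. In the window at chr13:84300001-84350000, 10 members closest to Tmem161b had medians of 0.826 and 0.970. Their top member had 7.19 in replicate 1 and 11.3 in replicate 2. They spanned 6.25 kb, the shortest span of any kept window. The centre of their window lies 103 kb from that start, and the window overlaps no protein-coding gene.

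Of the 20807 autosomal protein-coding genes, 84 (0.404%) started in a kept window. Against that share, 3 of 20 activity-induced genes did (Btg2, Egr1 and Egr4), 2 of 15 genes of progenitors and newborn neurons (Insm1 and Sox4), 1 of 18 synaptic genes (Vamp2), 1 of 21 neuronal RNA-binding genes (Celf5) and 1 of 4 nuclear factor I genes (Nfic). Celf5 and Nfic start in the same window of 19 mostly weak members, so their counts come from 1 window. The lists of excitatory neuron (20), astrocyte (18), oligodendrocyte lineage (17), microglia (16) and vascular (18) markers, of housekeeping genes (18), and of liver and skeletal muscle genes (20) had 0. The counts are too small to rank the lists, and the lists were chosen with earlier results of these data known. The median number of reproducible distal peaks in the window of a gene's start was 4.5 for nuclear factor I genes, 3 for progenitor and newborn neuron genes, 2 for the excitatory neuron, activity-induced, oligodendrocyte lineage and neuronal RNA-binding genes, 1.5 for synaptic genes, 0 for vascular genes and 1 for astrocyte, microglia, housekeeping, and liver and skeletal muscle genes, beside 1 for all protein-coding genes. Some genes missed the threshold narrowly. Fos, an activity-induced gene, stood at 7. Egr3, also activity-induced, the astrocyte gene Aldh1l1 and the oligodendrocyte lineage genes Sox8 and Cspg4 stood at 6. A gene start in the window does not tie the sites to that gene, and 23 kept windows held no protein-coding start.

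In 11 windows members lay at tRNA genes, an annotation that was added after the data were seen. Of the members, 75 (10.3%) lay within 200 bp of a RefSeq tRNA gene, against 109 (0.275%) of the others, and 75 of the 386 autosomal tRNA genes (19.4%) lay at a member. All 11 windows fell below 8 when the sites at tRNA genes were left out, which left 64 windows. tRNA genes are transcribed by RNA polymerase III from promoter elements inside the gene, the A box and the B box, to which the factor TFIIIC binds.

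The Abt1 window on chromosome 13 held more of them than any other window, with 14 of its 16 members at 13 tRNA genes for alanine, isoleucine, lysine, proline, tyrosine and valine. Its 16 members had a lowest, median and highest signal of 0.594, 0.953 and 5.35 in replicate 1 and of 0.823, 1.62 and 8.51 in replicate 2. At Zfp184 on the same chromosome, named like Trim27 and Hist1h4h after its values were seen, all 9 members lay at tRNA genes, with medians of 0.693 and 1.06. At Olfr1423, an olfactory receptor gene on chromosome 19, 6 of 10 members did, and at Trim27 and at the histone genes around Hist1h4h, both on chromosome 13, 7 of 8 did in each window. The 75 members at tRNA genes had a median signal of 1.85 in replicate 1 and 2.42 in replicate 2, and the other 651 members had 0.948 and 1.15. The 109 sites at tRNA genes outside the clusters had 1.85 and 2.45, so the tRNA sites inside and outside the clusters had like medians.

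**Figure D3:**
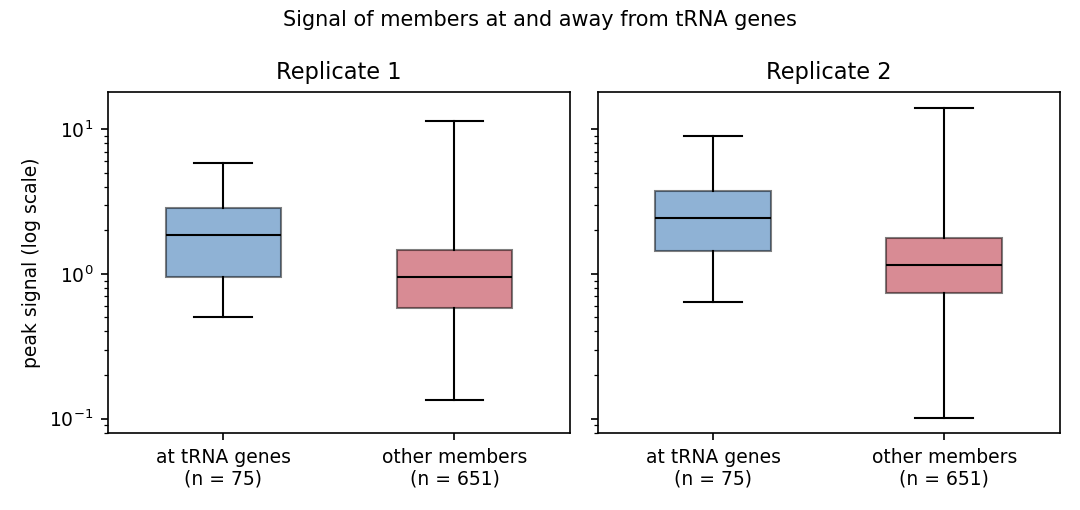
Peak signal (log axis) in each library for the 75 members at tRNA genes and the 651 other members, as boxes of median and quartiles with whiskers to the lowest and highest value. The tRNA members have medians of 1.85 and 2.42, above 0.948 and 1.15 for the other members.

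Footprints were denser at the members at tRNA genes than at the other members, which had lower signals. In replicate 1, 98.7% of the members at tRNA genes held a footprint, with 17.5 footprints per kb of peak, and in replicate 2 it was 92% with 14.7 per kb. The other members had 86.9% and 10.5 per kb in replicate 1, and 73.9% and 7.08 per kb in replicate 2. The 109 sites at tRNA genes outside the clusters had 99.1% and 16.9 per kb in replicate 1, and 98.2% and 15.7 per kb in replicate 2. The density was thus not particular to the clusters. Among all other reproducible distal peaks, the strongest of 5 equal parts by signal had 17.2 per kb in replicate 1 and 14.8 in replicate 2. The B box consensus GTTCGANTC, searched on both strands in the central 200 bp, was found in 35 of the 75 members at tRNA genes and in 1 of the other 651, beside 0.238% of all reproducible distal peaks. In members, 30 of the 36 matches (83.3%) lay under a replicate 1 footprint and 29 (80.6%) under a replicate 2 footprint. In the others it was 32 of 60 matches (53.3%) in replicate 1 and 31 (51.7%) in replicate 2. Of the 109 others at tRNA genes, 33 held a match. So 33 of the 60 others with a match lay at tRNA genes, against 35 of the 36 members with one. The footprinted shares of members and others are therefore over unlike sets, and the share at tRNA genes alone was not computed. The tRNA-Tyr site printed above is among the members with a footprinted match, which lies on the minus strand inside a run of capitals.

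The members were stronger than the other reproducible distal peaks at the median in both libraries. Their median signal was 0.984 in replicate 1 (quartiles 0.604 and 1.59), against 0.703 for the others (0.469 and 1.15). In replicate 2 it was 1.21 (0.778 and 1.94), against 0.868 (0.586 and 1.40). On the log2 scale the difference of medians was 0.48 ± 0.0076 (SD, n = 2 libraries). The members ran from 0.135 to 11.5 in replicate 1 and from 0.101 to 14.1 in replicate 2, inside the range of the others, and 19 of the 75 windows in replicate 1 and 17 in replicate 2 had medians below those of the others. Across the 75 windows the count and the median replicate 1 signal had a Spearman rho of -0.33, a description over windows that share 1 library. The log2 difference was -0.046 with the authors' shorter list, which kept 157 members in 15 windows.

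**Figure D4:**
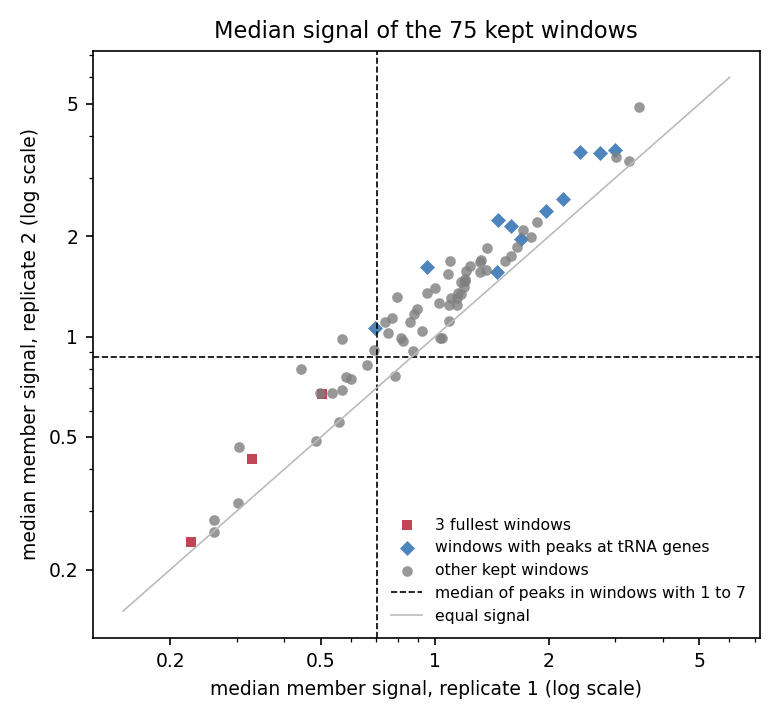
Median member signal of each of the 75 kept windows in replicate 1 (horizontal) and replicate 2 (vertical), on log axes. Squares are the 3 fullest windows, diamonds the 11 windows with members at tRNA genes and circles the rest; dashed lines are the medians of the other reproducible distal peaks and the grey line is equal signal. The medians run from 0.227 to 3.46 in replicate 1 and from 0.242 to 4.89 in replicate 2, and follow each other closely.

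The 2 libraries ranked the members alike. Spearman rho between their signals was 0.958 over the members and 0.920 over the others, both across peaks already chosen for their presence in both libraries. Over the 75 window medians rho was 0.961. The signal was higher in replicate 2 for 614 of the 726 members, with a median log2 difference (replicate 1 minus replicate 2) of -0.30, against -0.31 for the others, so members and others were offset alike. Of the distal replicate 1 peaks in kept windows, 74.7% overlapped a replicate 2 peak, against 59.2% in other windows, and of those of replicate 2, 88.7% did, against 79.3%. In 68 of the 75 windows replicate 2 alone had at least 8 distal peaks. The rule uses these overlaps, so the shares are a description.

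The members lay closer to genes and in sequence richer in CpG than the others. The median distance to the nearest protein-coding gene start was 13135 bp for members and 43776 bp for the others, and 42.8% of members and 18.7% of the others lay within 10 kb. The rule itself used distance from transcript starts. Introns held 40.6% of members and 46.5% of the others, exons 9.78% and 6.97%, and intergenic sequence 49.6% and 46.5%. The central 200 bp of members had a median GC content of 55.75%, against 52%, and a mean of 7.02 CpG, against 4.39. The mean CpG per window ran from 1.33 to 14.9, the highest being at Tchh, where 7 of 8 members were exonic. It was 14.6 at Insm1, 14.1 at Sox4, 12.4 at Otx1 and 12.1 at Egr4. These 4 windows had many members in exons of short genes, more than 1 kb from the start. High values were not limited to exons. The window closest to Dhx15 had 13.4 with 8 intergenic and 0 exonic members, and that of Sp9 had 12.8 with 3 of 8 exonic.

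Footprints were less dense in members than in others of like signal. Over all members there were 11.1 footprints per kb of peak in replicate 1 and 8.54 in replicate 2, against 12.03 and 9.16 for the others, a ratio of 0.929 ± 0.0049 (SD, n = 2 libraries). At least 1 footprint was found in 640 members (88.2%) in replicate 1 and 550 (75.8%) in replicate 2, against 91.7% and 76.9% of the others. When all reproducible distal peaks were split into 5 equal parts by signal, members had fewer footprints per kb in 5 of 5 parts in both libraries, and the same was found without the members at tRNA genes and without the 3 fullest windows. Members were also wider, with a median of 229.5 bp against 200 bp. In the strongest part the values were 15.6 against 17.2 per kb in replicate 1 and 12.9 against 14.8 in replicate 2. In the weakest part they were 5.31 against 8.01 in replicate 1 and 0.902 against 2.54 in replicate 2.

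**Figure D5:**
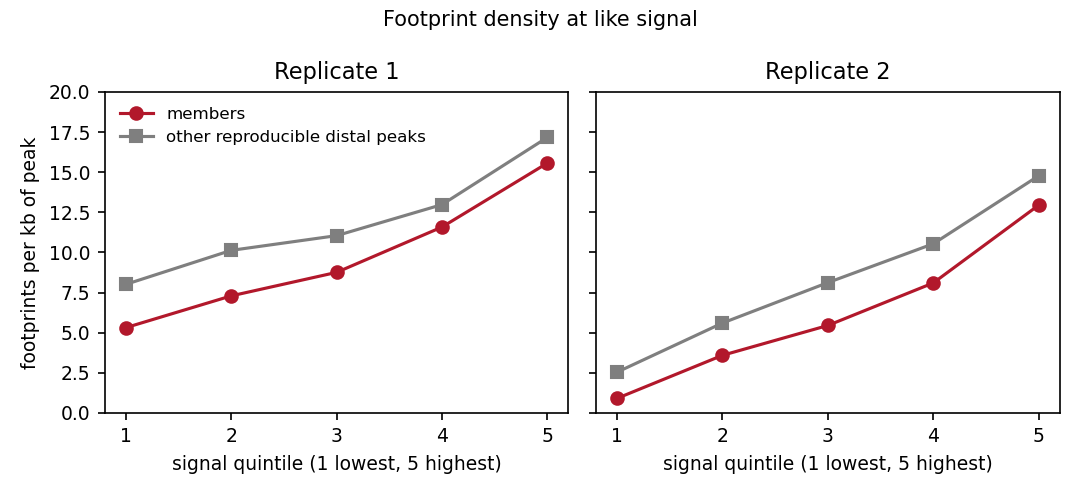
Footprints per kb of peak in 5 equal parts of signal, for members and for other reproducible distal peaks, 1 panel per library. In both libraries the members' line lies under that of the others in all 5 parts.

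Single windows spanned a wide range of footprint density. The Nr1d1 and Msl1 window had 14.0 per kb in replicate 1 and 15.5 in replicate 2, and the Abt1 window with its tRNA genes had 16.7 and 10.0. The Phactr3 window had 5.70 and 1.82 and the B4galt5 window 5.72 and 1.36, so windows of weak peaks had few. The overall ratio was not stable to the choice of windows: without the 3 fullest windows, an alternative added after the data were seen, it was 0.958 in replicate 1 and 1.01 in replicate 2, and it was 1.03 over both libraries with a threshold of 6 peaks or with a reciprocal overlap of 50%.

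Among consensus sequences, searched as exact matches on both strands in the central 200 bp, that of the insulator protein CTCF was found in 38 members (5.23%), against 10.1% of the others and 9.98% of all. Where it occurred it was nearly always footprinted, in 97.4% of matches in members and 96.4% in others in replicate 1, and in 94.7% and 83.6% in replicate 2. The nuclear factor I half-site TTGGCA was found in 14.2% of members and 19.5% of the others, the proneural E-box CAGATGG in 7.44% and 11.1%, and the AP-1 site TGANTCA in 4.96% and 7.89%. The GC-rich motifs went the other way. The EGR site GCGNGGGCG was found in 2.34% of members and 0.843% of the others, and the SP/KLF site GGGGCGGGG in 3.03% and 1.51%. The cyclic AMP response element TGACGTCA was found in 0.964% and 0.452%, in 7 members. Matches of different motifs may share bases, the members differ in GC content as given above, and the part of base composition was not tested.

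The tested enhancers of the VISTA collection in RefSeq, an annotation also added after the data were seen, overlapped 14 members (1.93%) and 274 of the others (0.691%). They were 5 elements of 617 on the autosomes, and 4 of the 5 had recorded activity in embryonic forebrain. The share of all 617 with forebrain activity is not given here, so the 4 of 5 is a description without a comparison. The element mm1445 near Btg2 held 5 members, with a top signal of 4.01 in replicate 1 and 3.97 in replicate 2. The element mm1606 at Trmt61a held 2. The element mm1660 also held 2, in another kept window closest to Tmem161b, at chr13:84050001-84100000, and not in the Tmem161b window described above. The element mm1444 near Irf2bpl held 3 and was recorded in hindbrain and midbrain only.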

How the data were processed

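Both DNase-seq libraries entered every step. The authors deposited per library 2 peak lists, a footprint list and a cut-rate table in mm10 coordinates, per the file headers and labels. The sources used here do not give the aligner, the callers, their versions or thresholds. Signal values are those deposited by the authors in the longer peak list. They were taken for a replicate 1 peak from the list itself and for replicate 2 from the strongest overlapping peak. Of the members, 77 overlapped more than 1 replicate 2 peak, and members could share a replicate 2 peak. The false discovery rate, a p-value type of measure, of the deposited cut-rate tables served to give listed bases. Footprints all carried the same deposited value, so they could not be ranked. Read totals were not used here, so no counting interval is given, and every share is over peaks or windows.

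Distances used GENCODE mouse release M21, sequence and repeats used GRCm38.p6, and tRNA genes and VISTA enhancers came from the RefSeq annotation of that build. A footprint counted for a peak it overlapped by at least 1 bp. The overall footprint density of replicate 2 was taken over its own peaks at the members (734) and at the others (39649), and all other replicate 2 footprint values over the replicate 1 peak intervals. A motif match counted as footprinted when at least 50% of its bases were covered. Members and gene lists were chosen with earlier results of these data known. The genes named are those that start in the 20 fullest windows or lie closest to them, the listed genes in kept windows, and the 3 strongest windows at 8 and at 7, and any other gene was picked with its values in view. The tRNA and VISTA annotations and the B box were added after the data were seen. Peaks of a library are not replicates, and the spread is given over the 2 libraries. Interval overlap was tested on simulated data with 800 intervals and 0 differences from a direct search. Python 3.11.15, numpy 2.4.6, pandas 2.3.3 and matplotlib 3.10.9 were used. Some results that met these rules are not reported here.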

Additional observations from a re-analysis of the deposited data

How the results depend on the processing

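The size of the set depended on nearly every choice. Against 726 members in 75 windows, with 84 protein-coding genes starting there, the authors' shorter peak list gave 157 in 15 with 19 genes, a reciprocal overlap of 50% gave 273 in 31 with 36, and the stronger 50% of peaks gave 289 in 32 with 43. A threshold of 6 gave 2289 in 325 with 247 genes, and one of 10 gave 292 in 23 with 23. Joining peaks under 200 bp apart gave 344 in 37 with 46, and a distal limit of 2500 bp gave 337 in 35 with 26. Counting gene starts within 50 kb of a window gave 226 genes. Equal numbers of peaks, windows starting at 25 kb, and leaving out tRNA sites or the 3 fullest windows stayed within 1.5 times in members, windows and genes.

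The log2 signal difference, 0.48 in the report, was -0.046 with the shorter list, a reversal, 0.54 with 50% reciprocal overlap, 0.23 with the stronger 50%, 0.44 with windows starting at 25 kb, 0.45 at 6 or more, 0.19 at 10 or more, 0.52 with joined peaks, 0.43 with the 2500 bp limit, 0.40 without tRNA sites and 0.55 without the 3 fullest windows. The footprint ratio, 0.929 in the report, was above 1 at 1.03 with 50% reciprocal overlap and at 1.03 with 6 or more, both reversals, and was 0.691 with the shorter list, 0.895 with the stronger 50%, 0.968 with equal numbers of peaks, 0.952 with windows at 25 kb, 0.771 at 10 or more, 0.893 with joined peaks, 0.908 with the 2500 bp limit, 0.861 without tRNA sites and 0.986 without the 3 fullest windows. The causes were not tested.

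With 1 library alone, where no overlap is asked for, the ranges were 1441 to 7981 members, 144 to 665 windows, 123 to 671 genes, -0.32 to 0.28 for the log2 signal difference and 0.728 to 0.933 for the footprint ratio. Without replicate 2 the signal difference was -0.32, a reversal. Leaving out tRNA sites and the 3 fullest windows were chosen after seeing the data. No paired analysis was possible because both libraries belong to 1 group. Depth is unknown, so footprints absent from weak peaks may not have been detectable.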
